A study of Mus musculus with 2 samples.

Results

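The genes described here are 33 genes of protein folding in the endoplasmic reticulum (ER) and of the unfolded protein response, measured by RNA sequencing of messenger RNA from mouse cardiac myofibroblasts. They were taken by symbol from a table of 24532 genes, and every one of the 33 was found and passed a minimum mean of 5 CPM (counts scaled to library size) over both libraries, as did 9935 genes in all. The cells were isolated from C57BL/6 hearts at day 3 after infarction and grown in culture with serum. One culture received the control siRNA (siControl) and the other an siRNA against Bcat1 (siBcat1), each at 12.5 nM with a lipid reagent, and RNA was taken after 72 hours. Bcat1 encodes the cytosolic aminotransferase of leucine, isoleucine and valine, and the series title places it upstream of proline synthesis and fibrosis. Each group had 1 library from 1 siRNA sequence, with no sample of untransfected cells, so no difference given here has a replicate check, a test or a p-value. How many hearts or mice the cells came from is not given in the sources used here.

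Secreted and membrane proteins enter the ER through the SEC61 channel, fold there with the help of chaperones and disulfide isomerases, and are sent back to the cytosol for degradation when they fail to fold. When unfolded proteins build up, the membrane sensors IRE1 (gene Ern1), ATF6 and PERK (gene Eif2ak3) start the unfolded protein response. IRE1 splices Xbp1 mRNA into the form that encodes an active transcription factor, ATF6 is cut in the Golgi to release another, and PERK lowers translation while favouring that of ATF4. XBP1 and ATF6 raise genes for chaperones and degradation factors. Myofibroblasts secrete large amounts of collagen and fibronectin, so they depend on this machinery.

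The DNA element through which ATF6 and XBP1 act together with NF-Y on chaperone genes, the ER stress response element, consists of CCAAT and CCACG with 9 bases between them. It was searched on both strands in RefSeq promoter windows (GRCm38.p6), each reaching from 250 bases before to 50 bases after an annotated start. Of all 32851 windows, 39 (0.119%) held it. The 27 members with a window (all but Atf6, Derl1, Hyou1, Manf, Sec61a1 and Ssr2) had 30 windows, of which 8 (26.7%) held it, and these belonged to Calr, Canx, Creld2, Dnajc3, Hsp90b1, Hspa5, Pdia6 and Syvn1. The members are known stress response genes, so the shared element is background to their choice and is no result of the siRNA. The windows of the 3 element-bearing genes with the highest mean CPM are printed because they show the element in both directions and, in Hsp90b1, in 2 copies. Letters run 5′ to 3′ along the gene, and capitals mark the CCAAT and CCACG parts, which read as ATTGG and CGTGG where the element lies on the other strand.
Calr, chr8:84846882-84847181, minus strand: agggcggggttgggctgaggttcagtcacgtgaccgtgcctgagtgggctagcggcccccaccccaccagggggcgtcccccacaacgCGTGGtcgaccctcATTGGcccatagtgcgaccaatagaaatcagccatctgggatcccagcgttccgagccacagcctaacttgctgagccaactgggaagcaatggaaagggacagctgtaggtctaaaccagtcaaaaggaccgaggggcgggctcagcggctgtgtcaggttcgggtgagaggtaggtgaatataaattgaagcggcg
Hspa5, chr2:34771840-34772139, plus strand: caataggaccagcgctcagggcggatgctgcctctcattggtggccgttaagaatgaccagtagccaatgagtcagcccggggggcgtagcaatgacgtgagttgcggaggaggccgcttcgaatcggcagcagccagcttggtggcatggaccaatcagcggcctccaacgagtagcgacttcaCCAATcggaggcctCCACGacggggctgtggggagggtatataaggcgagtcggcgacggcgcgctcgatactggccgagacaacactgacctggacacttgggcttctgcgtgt
Hsp90b1, chr10:86705395-86705694, minus strand: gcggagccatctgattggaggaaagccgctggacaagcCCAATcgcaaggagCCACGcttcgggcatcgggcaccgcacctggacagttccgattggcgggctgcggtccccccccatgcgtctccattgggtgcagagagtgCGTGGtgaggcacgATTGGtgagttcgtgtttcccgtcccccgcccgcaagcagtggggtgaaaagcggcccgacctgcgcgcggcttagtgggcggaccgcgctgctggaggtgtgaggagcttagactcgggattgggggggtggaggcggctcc

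In Hspa5 the element began 65 bases before the annotated start, in Calr 162 bases before it on the opposite strand, and in Hsp90b1 its copies began 212 and 107 bases before it. A shorter element, ATTGG and CCACG with 1 base between them, was found in Herpud1 and Dnajb11 among the members and in 12 windows (0.0365%) of all. The element TGACGTGG was found in 1 member, Txndc5, and in 222 windows (0.676%). CCACG alone, which the longer and shorter elements contain, was in 22 of the members' 30 windows (73.3%) and in 32.8% of all windows. A match of letters is a description and no evidence of binding in these cells. The 8 members with the long element had a median log2 fold (siBcat1 over siControl) of -0.21, from -0.78 in Syvn1 to 0.52 in Creld2, and the 19 members with a window but without it had a median of -0.05, from -1.82 to 0.94. Once the relation with transcript length was subtracted, as described with the length values, both medians were -0.05.

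**Figure D1:**
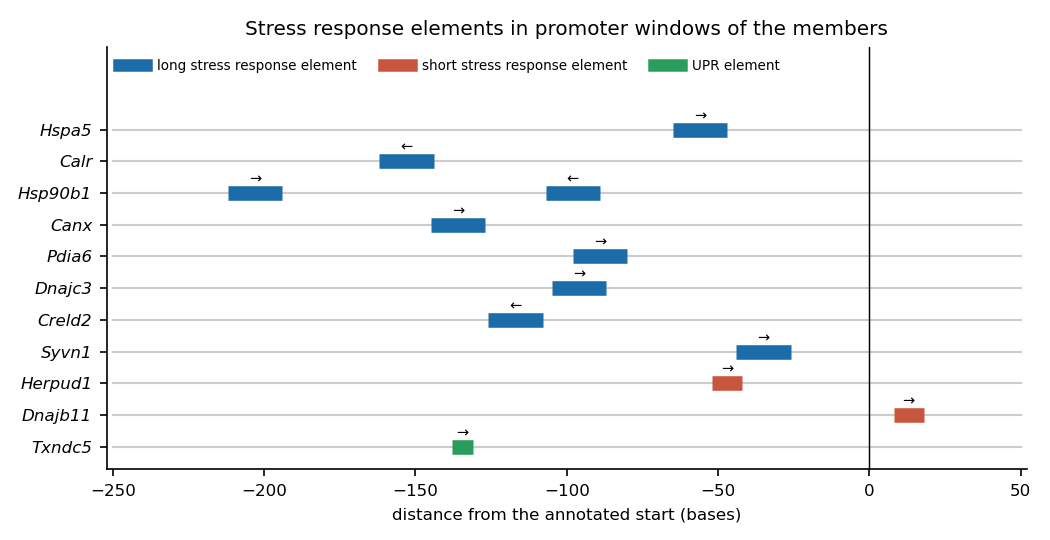
Position of each stress response element in the promoter windows of the members, as distance in bases from the annotated start; bars span the element and arrows give its direction relative to the gene. The long element lay between 212 and 26 bases before the start in all 8 genes that held it, and Hsp90b1 held 2 copies.

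The libraries held 127309329 counts in siControl and 104581819 in siBcat1. Counting error was small beside the larger differences described, but the intervals of 2 members, Hspa5 and Sdf2l1, hold 0. Bcat1 itself (chromosome 6, 144993835 to 145076184, minus strand; all gene positions are GENCODE M21 on GRCm38) had 8891 and 99 counts, a log2 fold of -6.11 with an exact 95% interval of -6.41 to -5.83. Intervals here cover counting error alone and take reads as independent, which reads without molecular identifiers need not be. All 8 fibroblast and all 6 myofibroblast markers were measured, with summed levels of 21915 and 9353 CPM for the fibroblast list and 8230 and 7237 CPM for the myofibroblast list in siControl and siBcat1. Most of the former difference was in Col1a1 (11058 and 4345 CPM) and Col1a2 (9535 and 3919 CPM). Ddr2 (306 and 181 CPM), Pdgfra (386 and 286 CPM), Lum (79.2 and 62.0 CPM), Dcn (330 and 297 CPM) and Tcf21 (129.9 and 121.7 CPM) were also lower with siBcat1. Thy1 alone was higher, with 90.9 and 140.7 CPM. Markers of other cell types were low: the 8 macrophage markers summed to 10.3 and 28.7 CPM, with Ptprc, Adgre1 and C1qa at 0 in both libraries, the 6 endothelial markers to 45.8 and 44.2 CPM, the 6 cardiomyocyte markers to 46.4 and 10.4 CPM, with Myh6, Ryr2 and Pln at 0, and the 6 smooth muscle and pericyte markers to 14.2 and 8.75 CPM. Most of the cardiomyocyte sum was Tnnt2 (46.3 and 10.3 CPM), and most of the endothelial sum was Tek (33.9 and 32.0 CPM). Most of the macrophage sum was Lyz2 (5.46 and 21.3 CPM). Cd14 (1.54 and 3.22 CPM) and Cd68 (0.502 and 1.53 CPM) were likewise higher with siBcat1. Csf1r (2.82 and 2.69 CPM) and C1qb (0.0304 and 0 CPM) were not. A count of 0 allows up to 3 counts, which is 0.0228 CPM in siControl and 0.0296 CPM in siBcat1. The part of other cell types in the differences was not tested, and in a bulk culture fewer cells of a type and less RNA per cell cannot be told apart.

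The 33 genes showed no common direction. With CPM scaled by the trimmed mean of M values (TMM), 4 had at least 1.5 times their siControl level with siBcat1 (Sec61g, Derl2, Sec61b and Manf), 7 were lower by 1.5-fold or more (Ern1, Atf6, Sel1l, Syvn1, Hyou1, Pdia4 and Sec61a1), and 22 lay between. Among all 9935 genes, 17.6% passed 1.5-fold upward and 25.6% passed it downward, so neither count of members exceeds the share among all genes. The median log2 fold of the members was -0.12, beside -0.06 for all genes, and 16 members lay above that all-gene median and 17 at or below it. Nearest to the 1.5-fold limit of 0.58 on the log2 scale were Manf with 0.62 inside and Creld2 with 0.52 outside on the higher side, and Sec61a1 with -0.68 inside and Calr with -0.51 outside on the lower side. At a 2-fold limit, 2 members were lower, Ern1 and Atf6, and 0 were higher. Other scalings gave 5 members higher and 4 lower (upper quartile), 3 higher and 9 lower (library totals), and 0 higher and 17 lower (TPM), where the median over the 8811 genes kept on that scale was itself shifted by -0.41. The share of all genes past the limit is not given for the 2-fold limit or for these scalings, so these counts cannot be set against it.

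**Figure D2:**
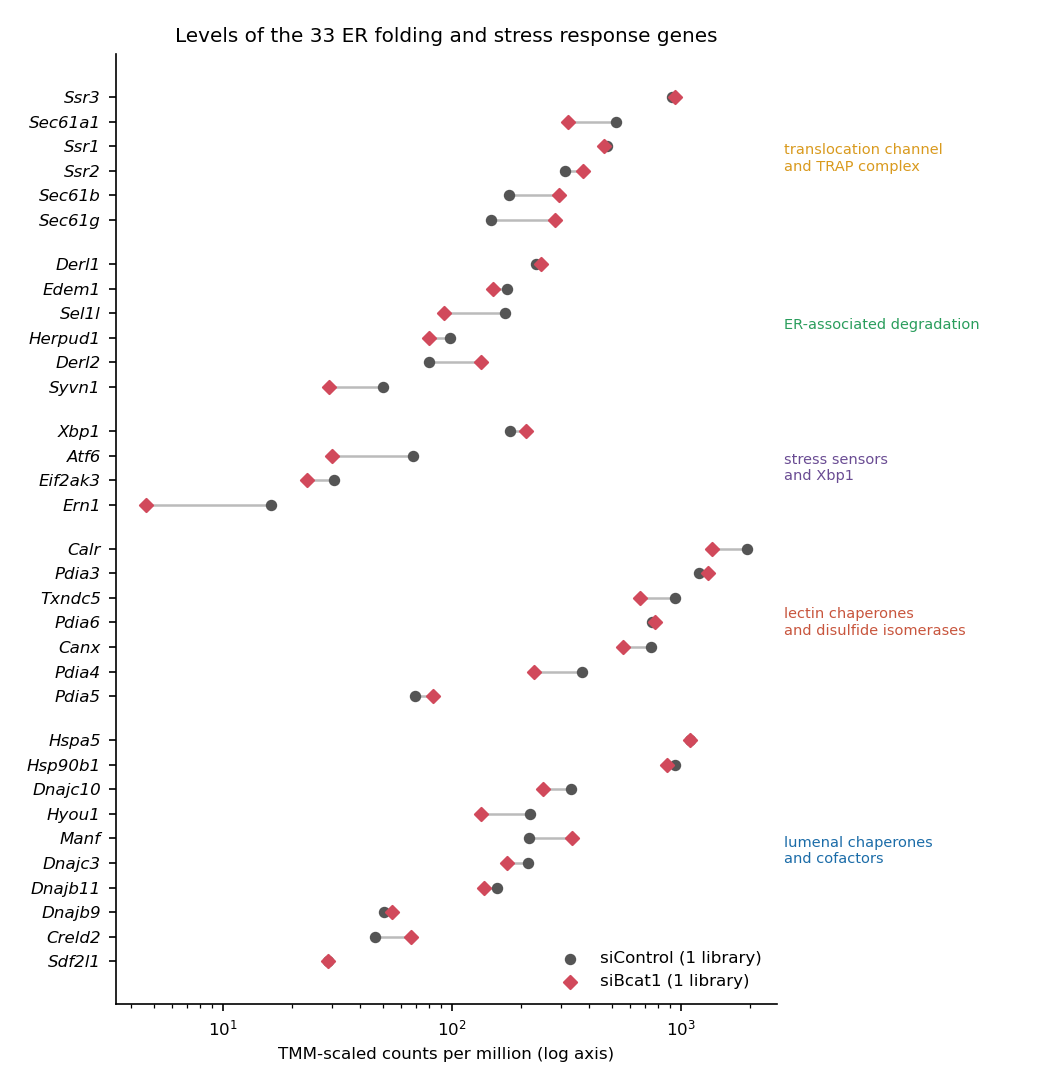
Level of each of the 33 genes in TMM-scaled CPM (log axis) in siControl (grey circles) and siBcat1 (red diamonds), 1 library each, grouped by role. Hspa5 and Sdf2l1 have nearly the same level in both libraries, whereas Ern1 is at 16.3 CPM in siControl and 4.61 CPM in siBcat1.

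Transcript length has to be read beside every fold. Over 9933 genes, which are not independent, the log2 fold was lower the longer the transcript, by the length that the deposited counts and TPM values imply (Spearman correlation -0.66). Over the 33 members, which share the same pair of libraries, it was -0.61. The 5 members under 1500 bases had a median log2 fold of 0.52, beside 0.67 for all 1636 genes of that length. The 9 members of at least 4000 bases had -0.41, beside -0.67 for all 3109 such genes. The 19 members between had 0.00, beside 0.02. With the lowess curve of fold on length subtracted, called length-adjusted below, 2 members passed 1.5-fold upward, Derl2 and Ssr1, and 4 passed it downward, Ern1, Pdia4, Calr and Sdf2l1. Of all genes, 12.3% were higher and 13.7% lower by that measure, again no smaller shares than among the members. Only 3 of the 11 members past 1.5-fold by TMM stayed past it in the same direction, namely Derl2, Ern1 and Pdia4. What produced the relation with length was not tested.

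**Figure D3:**
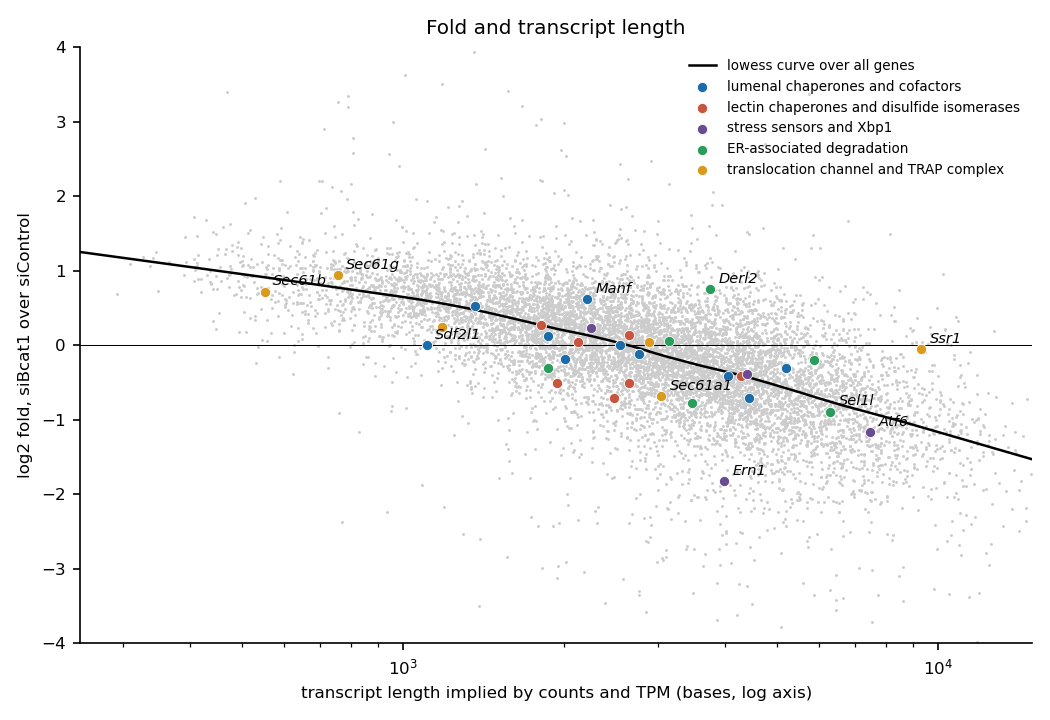
Log2 fold (siBcat1 over siControl) against transcript length implied by the deposited counts and TPM values (bases, log axis) for all genes (grey; values beyond the axes are not shown) and the 33 members (coloured by role), with the lowess curve over all genes. Sec61b, Sec61g, Sel1l and Atf6 lie near the curve, whereas Ern1 lies below it and Derl2 and Ssr1 above it.

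Per length, in the deposited TPM values, Calr was the most abundant member in both libraries, with 2081 TPM in siControl and 1029 TPM in siBcat1. In siControl it was followed by Pdia3 with 942, Hspa5 with 893, Txndc5 with 743, Pdia6 with 731 and Hsp90b1 with 712 TPM. In siBcat1 the second place was taken by Sec61b with 776 TPM, ahead of Pdia3 with 732 and Hspa5 with 629 TPM. The sensors were the scarcest, with Ern1 at 8.51 and 1.69 TPM, Eif2ak3 at 14.4 and 7.76 TPM and Atf6 at 18.9 and 5.89 TPM. The 33 genes together made up 11178 TPM (1.12% of the total) in siControl and 7750 TPM (0.776%) in siBcat1. Of raw counts they took 1.34% (exact 95% interval 1.341% to 1.345%) and 1.15% (1.145% to 1.149%). The lectin chaperones and isomerases made up most of the difference in TPM, with 5249 and 3053 TPM, while the translocation genes had 2751 and 2495 TPM. Folds were lower on the TPM scale: the median was -0.47 in log2(TPM + 1) over the 8811 genes that passed the minimum in TPM, a scale that makes differences of low genes too small, and 28 of the 33 members were below 0 and 5 above it. The share of all genes below 0 on that scale is not given here.

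Lumenal chaperones and their cofactors had small folds for the most part, with 1 of 10 higher, 1 lower and 8 between, a median log2 fold of -0.06 and a length-adjusted median of -0.06. These counts stand beside 17.6% higher and 25.6% lower among all genes. Hspa5 encodes BiP, the HSP70 chaperone of the ER that also holds the stress sensors inactive (chromosome 2, 34771970 to 34777547, plus strand). It had 1098 CPM in both libraries, a log2 fold of 0.00 [-0.01 to 0.01], with -0.03 length-adjusted and -0.51 by TPM, near the all-gene TPM median. Hsp90b1, which encodes GRP94, the HSP90 chaperone of the ER, had 947 CPM in siControl and 870 CPM in siBcat1, a log2 fold of -0.12 [-0.13 to -0.11]. Both of these main chaperones thus lay within 1.1-fold between the libraries.

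Hyou1, a large HSP70-related chaperone that exchanges the nucleotide of BiP, was the lowest of the group (chromosome 9, 44379490 to 44392369, plus strand). It had 221 and 135 CPM in siControl and siBcat1, a log2 fold of -0.71 [-0.74 to -0.68], which was -0.28 after length adjustment of its 4438-base transcript. Manf, a small secreted protein that binds BiP and is released on ER stress, lies on the minus strand of the same chromosome (106838312 to 106891979) and was the highest, with 218 and 335 CPM and a log2 fold of 0.62 [0.60 to 0.64], 0.48 length-adjusted and 0.11 by TPM. Creld2, another secreted stress protein, had 46.1 and 66.3 CPM, a log2 fold of 0.52 that was 0.05 length-adjusted.

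The J-domain cofactors, which deliver unfolded clients to BiP and stimulate its ATPase, were spread on either side of 0. Dnajb9 (ERdj4), which also represses IRE1, had 50.6 and 54.9 CPM with a log2 fold of 0.12 [0.06 to 0.17]. Dnajb11 (ERdj3) had 158 and 138 CPM with -0.19, Dnajc3 (p58IPK), an inhibitor of PERK, had 215 and 174 CPM with -0.31, and Dnajc10 (ERdj5), a disulfide reductase for degradation clients, had 333 and 251 CPM with -0.41. Length-adjusted, these 4 genes had -0.13, -0.38, 0.27 and -0.05, so the sign turned for Dnajc3 and for Dnajb9, which had 0.07 by its GENCODE length. Sdf2l1, a partner of Dnajb11 with a short transcript of 1109 bases, had 29.0 and 28.9 CPM, a log2 fold of 0.00 [-0.07 to 0.07], which became -0.60 length-adjusted. Of all genes under 1500 bases, 57.4% were at least 1.5-fold higher.

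Lectin chaperones and disulfide isomerases ranged from -0.71 to 0.27, with 0 of 7 higher, 1 lower and 6 between, and a median of -0.41. The shares among all genes were 17.6% higher and 25.6% lower. Length-adjusted, 2 were lower and the median was -0.12, beside 13.7% lower among all genes. Calr, the soluble lectin chaperone calreticulin that holds glycoproteins and buffers ER calcium (chromosome 8, 84841850 to 84846934, minus strand), had 1949 and 1368 CPM, a log2 fold of -0.51 [-0.52 to -0.50]. At its transcript length of 1945 bases the curve over all genes lay above 0, and its length-adjusted fold was -0.73. Canx, the membrane-bound counterpart calnexin, had 746 and 561 CPM with -0.41, but -0.01 length-adjusted at 4287 bases. Pdia3 (ERp57), the isomerase that works with both lectins, went the other way, with 1200 and 1323 CPM and a log2 fold of 0.14 [0.13 to 0.15], 0.14 length-adjusted. The lectin chaperone genes and their partner isomerase gene therefore did not share a direction, although with TPM all 3 were lower, at -1.02, -0.91 and -0.36.

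Among the other isomerases, which form and rearrange disulfide bonds, Pdia4 (ERp72; chromosome 6, 47796141 to 47813430, minus strand) was the only one past 1.5-fold, with 373 and 228 CPM, a log2 fold of -0.71 [-0.73 to -0.68] and -0.76 length-adjusted. Txndc5 (ERp46), an isomerase known for its role in folding of matrix proteins in cardiac fibroblasts, had 948 and 666 CPM with -0.51 [-0.52 to -0.49] and -0.51 length-adjusted. Pdia6, which also acts on IRE1, had 749 and 771 CPM with 0.04, and Pdia5, which acts on ATF6, had 68.9 and 83.3 CPM with 0.27. Length-adjusted, Pdia6 had -0.12 and Pdia5 0.00. Pdia4, Calr and Txndc5 kept a negative fold in each of the 8 other scalings and length corrections tried, whereas the sign of Pdia3, Pdia5 and Pdia6 turned in some of them.

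Ern1 and Atf6, genes of 2 of the 3 sensors, had the lowest folds of the 33. Over the sensors and Xbp1 together, 2 of 4 were lower and 2 between, with a median of -0.78 that was -0.12 length-adjusted by the implied length and -0.32 by the GENCODE length. The lower share was 25.6% among all genes and 55.4% among genes of at least 4000 bases, an implied length that Atf6 and Eif2ak3 reach. These 4 genes are too few to set apart from such shares. Ern1, which encodes IRE1 alpha (chromosome 11, 106394650 to 106487852, minus strand), had 2143 and 467 counts, or 16.3 and 4.61 CPM, a log2 fold of -1.82 [-1.97 to -1.68]. It stayed at least 1.5-fold lower in all 8 alternatives, between -2.26 and -0.90, the only member of which this held. Its length-adjusted value was -1.47 with the implied length of 3985 bases and -0.96 with the GENCODE length of 6946 bases. A higher minimum level was not among these alternatives. Ern1 passed the 5 CPM minimum on its mean over both libraries, with 4.61 CPM in siBcat1. At a minimum of 20 CPM it was not kept, and the median of the other 3 genes of this group was -0.39. Atf6 (chromosome 1, 170704674 to 170867771, minus strand) had 67.9 and 30.1 CPM, a log2 fold of -1.17 [-1.23 to -1.12], but its transcript of 7473 bases is among the longest of the members and its length-adjusted fold was -0.27. Eif2ak3, the PERK gene, had 30.6 and 23.4 CPM, a log2 fold of -0.39 [-0.46 to -0.32], with 0.03 length-adjusted by the implied length of 4403 bases and -0.37 by the GENCODE length of 2720 bases. Xbp1 went the other way from its activator Ern1, with 181 and 212 CPM and a log2 fold of 0.23 [0.21 to 0.26], 0.11 length-adjusted. It had -0.27 by TPM, above the all-gene median on that scale. These gene-level values do not separate spliced from unspliced Xbp1, so they hold no measure of IRE1 activity.

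**Figure D4:**
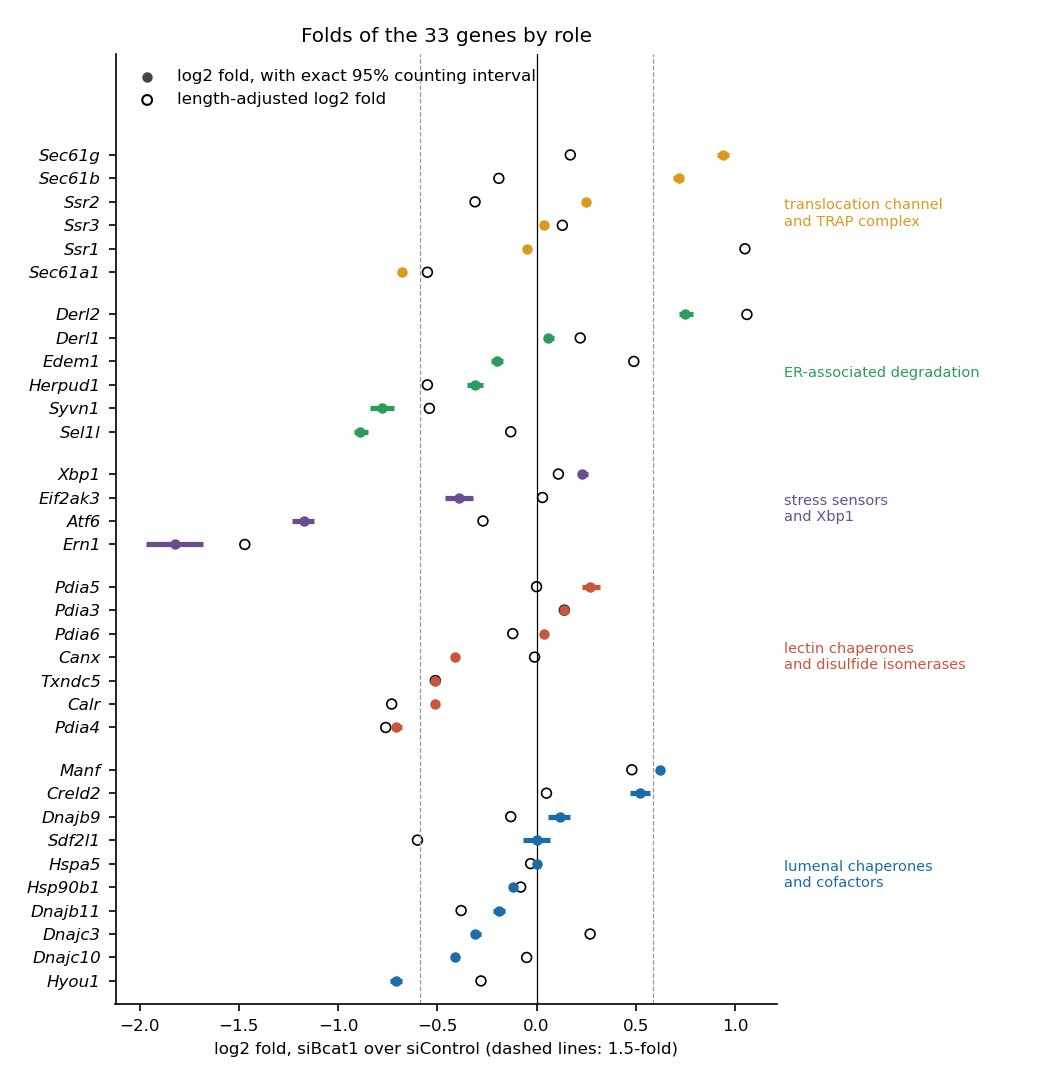
Log2 fold (siBcat1 over siControl) of each of the 33 genes with its exact 95% counting interval (filled), and the length-adjusted log2 fold (open circles), grouped by role, with dashed lines at 1.5-fold. Ern1 and Pdia4 lie below the lower line and Derl2 above the upper line by both measures, whereas Sec61g, Sec61b, Sec61a1, Manf, Sel1l, Syvn1, Atf6 and Hyou1 lie past a line only before adjustment.

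Genes of ER-associated degradation had folds on either side of 0, with 1 of 6 higher, 2 lower and 3 between, and a median of -0.25. Among all genes, 17.6% were higher and 25.6% lower, and 6 genes are too few to set apart from those shares. Length-adjusted, 1 was higher, 0 were lower and the median was 0.05, beside 12.3% higher and 13.7% lower among all genes. Sel1l and Syvn1 encode the adaptor and the ubiquitin ligase (HRD1) at the core of the retrotranslocation complex. Sel1l (chromosome 12, 91806043 to 91849157, minus strand) had 171 and 92.3 CPM, a log2 fold of -0.89 [-0.92 to -0.85], and Syvn1 (chromosome 19, 6046576 to 6053712, plus strand) had 49.9 and 29.1 CPM, a log2 fold of -0.78 [-0.84 to -0.72]. Length adjustment took Sel1l, with 6296 bases, to -0.13 and Syvn1, with 3472 bases, to -0.54, so both partners were below 0 by either measure. Herpud1, a stress-induced membrane protein of the same complex, had 98.4 and 79.7 CPM with -0.31 [-0.35 to -0.27] and -0.55 length-adjusted.

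The derlins, channel-like proteins through which clients leave the ER, were not below 0 by TMM-scaled counts or length-adjusted. Derl2 (chromosome 11, 71007164 to 71019841, minus strand) had 79.8 CPM in siControl and 135 CPM in siBcat1, a log2 fold of 0.75 [0.72 to 0.79], with a length-adjusted value of 1.06 by the implied length of 3755 bases and 0.73 by the GENCODE length of 2566 bases. It was also above 0 by TPM, at 0.24. Derl1 had 235 and 245 CPM with 0.06 [0.04 to 0.09] and 0.22 length-adjusted, but -0.44 by TPM, near the all-gene TPM median. Edem1, which marks misfolded glycoproteins by trimming mannose, had 174 and 152 CPM with -0.20 and, at 5865 bases, 0.49 length-adjusted.

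Within the SEC61 channel the subunit genes had folds of opposite sign. Sec61a1, the pore-forming subunit (chromosome 6, 88503579 to 88518905, minus strand), had 520 and 324 CPM, a log2 fold of -0.68 [-0.70 to -0.67]. Sec61b (chromosome 4, 47474658 to 47483242, plus strand) had 178 and 293 CPM with 0.72 [0.69 to 0.74], and Sec61g (chromosome 11, 16500530 to 16508484, minus strand) had 148 and 284 CPM with 0.94 [0.91 to 0.97], the highest fold of the 33. The small subunits have transcripts of 553 and 757 bases, against 3043 bases for Sec61a1. Length-adjusted, the folds were -0.55 for Sec61a1, -0.19 for Sec61b and 0.17 for Sec61g, so the opposite direction of Sec61b did not hold, and Sec61a1 was still the lowest of the 3. In TPM, Sec61a1 went from 355 to 156 while Sec61b went from 670 to 776 and Sec61g from 406 to 548.

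The TRAP complex, which sits beside the channel and helps some signal sequences to open it, showed smaller folds. Ssr1 had 478 and 462 CPM with -0.05 [-0.07 to -0.03], Ssr2 had 314 and 374 CPM with 0.25 [0.23 to 0.27], and Ssr3 had 920 and 948 CPM with 0.04 [0.03 to 0.06]. Ssr1 has the longest transcript of the members, 9317 bases and its length-adjusted fold was 1.05. Of all genes of at least 4000 bases, 55.4% were at least 1.5-fold lower. Ssr2, with 1184 bases, had -0.31 and Ssr3, with 2889 bases, 0.13. The adjustment thus reversed the order of the 3 subunits by fold.

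Exons of some members overlap exons of another gene in the table on the opposite strand, and it is not given whether counting used strand. The overlap was 415 bases for Hsp90b1 with 1810014B01Rik (103 and 115 counts), 231 bases for Derl2 with Mis12 (4627 and 3507 counts), 224 bases for Txndc5 with Bmp6 (8264 and 4458 counts) and 91 bases for Syvn1 with Mrpl49 (2763 and 2967 counts). Reads of the partners cannot be told apart there if strand was not used. Of the partners, Mis12 had a log2 fold of -0.02, Bmp6 -0.51 and Mrpl49 0.48, so Txndc5 and Bmp6 shared a direction and Syvn1 and Mrpl49 did not. Shorter overlaps on the opposite strand, of 50 bases or fewer, were found for Pdia6, Pdia3 and Dnajb9. Pdia4 with Mir704 and Manf with Rbm15b (6169 and 1570 counts) overlapped by 14 bases on the same strand, where counting by strand would not separate the reads.

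The wider pathway was described with 5 further lists. Their counts stand beside 17.6% higher and 25.6% lower among all genes, or 12.3% and 13.7% length-adjusted. Of 29 measured other ER folding factors, 5 were higher, 4 lower and 20 between, with a median of 0.00, and 1 higher, 4 lower and a median of 0.05 after length adjustment. Serpinh1, the collagen chaperone HSP47, had 2869 and 1292 CPM, a log2 fold of -1.15 (-1.27 length-adjusted), and Uggt1, the glucosyltransferase that checks glycoprotein folding, had -0.94 (0.13 length-adjusted at 9040 bases). Fkbp7, a prolyl isomerase, had 1.07 and the calcium-binding Nucb2 had 0.90 (0.38 and 0.58 length-adjusted). Of 19 other degradation genes, 1 was higher, 3 lower and 15 between, with a median of -0.05. Length-adjusted, 1 was higher, 0 were lower and the median was 0.13. Edem3, a mannosidase, had -1.14, the lectin gene Os9 had -0.91, Faf2, which recruits the VCP ATPase, had -0.71 and the ligase gene Rnf5 had 0.73. Length-adjusted by the implied length these were -0.34, -0.57, -0.30 and 0.13, all within 1.5-fold, whereas by the GENCODE length Edem3 and Os9 (-0.94) stayed past it. Of 24 other genes for translocation, signal peptide cleavage and glycan transfer, 6 were higher, 2 lower and 16 between, with a median of 0.15. Length-adjusted, 2 were higher, 2 lower and the median was -0.15. Short transcripts led the higher ones, the oligosaccharyltransferase gene Ostc at 0.92, the signal peptidase gene Spcs1 at 0.77 and the oligosaccharyltransferase gene Krtcap2 at 0.77, which were 0.30, 0.13 and -0.15 length-adjusted (0.05 for Krtcap2 by the GENCODE length). The 2 genes higher after adjustment were longer, Spcs2 with 2818 bases and Tram1 with 2947 bases. Their folds were 0.74 and 0.58 before adjustment, and 0.80 and 0.68 after it. Tram2, a translocation factor linked to collagen synthesis, had 10.3 and 1.70 CPM and the lowest fold of the 5 lists, -2.60, with -3.06 after adjustment by the implied length and -1.80 by the GENCODE length. It passed the 5 CPM minimum on its mean over both libraries, with 172 counts in siBcat1. At a minimum of 20 CPM it was not kept, and the median of its list was 0.21 over 23 genes.

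The stress signalling genes are read beside the shares of all genes, which were 25.6% lower and 17.6% higher, or 13.7% and 12.3% length-adjusted. Of 10 measured other sensing factors, 5 passed 1.5-fold downward, 1 upward and 4 neither, for a median of -0.57 and a length-adjusted median of -0.42, with 3 lower and 1 higher after adjustment. Creb3l2 and Creb3l1, membrane-bound transcription factors cut in the Golgi like ATF6, had 92.6 and 28.7 CPM and 111 and 55.3 CPM, with length-adjusted folds of -1.49 and -1.12. For Creb3l2 the implied length of 3323 bases and the GENCODE length of 7082 bases differed, and the latter gave -0.81. Mbtps1, the protease that makes the first cut in ATF6, had 205 and 98.4 CPM with -1.06 (-0.67 length-adjusted). Creb3, a related factor, was the higher one, with 77.8 and 147 CPM and 0.92 (0.55 length-adjusted). Of 11 measured outputs of the PERK branch, 4 were lower, 0 higher and 7 between, with a median of -0.24. Length-adjusted, 5 were lower, 0 higher and the median was -0.54, beside 0.00 for all genes. Trib3, a pseudokinase gene induced by ATF4 and CHOP, had 40.0 and 11.7 CPM with -1.78, Chac1, which breaks down glutathione, had 17.5 and 6.66 CPM with -1.39, and Sesn2, an inhibitor of mTORC1 signalling, had 34.3 and 14.3 CPM with -1.27 (length-adjusted -1.96, -1.77 and -1.26). Ppp1r15b, a subunit of the phosphatase that restores translation, had -0.99 (-0.34 length-adjusted). The 7 between were Dnajc3 (-0.31), Atf4 (-0.24), Ddit3 (-0.16), Ppp1r15a (-0.03), Nupr1 (0.01), Eif2s1 (0.18) and Asns (0.22). Of these, Ddit3 (-0.87) and Nupr1 (-0.85) passed 1.5-fold downward when length-adjusted, whereas Atf4 had -0.54, Asns -0.01 and Eif2s1 0.35. Dnajc3 is counted in this list and among the members. Eif2s1 encodes the substrate of PERK and is not an output. Trib3, Chac1 and Sesn2 are also known targets of the amino acid response through ATF4, so they are not specific to ER stress.

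**Figure D5:**
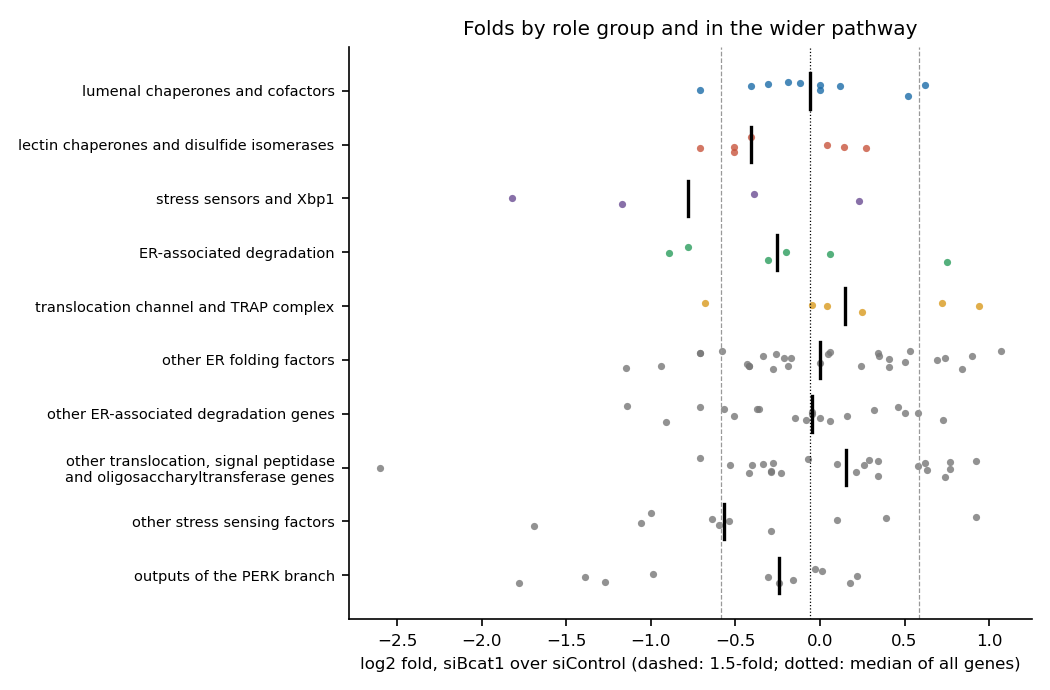
Log2 fold (siBcat1 over siControl) of each measured gene (points, spread vertically for legibility) in the 5 role groups of the members (coloured) and in 5 further lists (grey), with the median of each (black bar), 1.5-fold limits (dashed) and the all-gene median of -0.06 (dotted). The medians lie from -0.78 for the sensors with Xbp1 to 0.15 for the translocation groups (length-adjusted -0.12 for the former, and -0.03 and -0.15 for the latter), and the lumenal chaperones sit at the all-gene median.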

How the data were processed

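Messenger RNA was sequenced in 1 siControl and 1 siBcat1 library built with a stranded kit, per the labels' protocols. The submitters' processing notes list FastQC, Trimmomatic, HISAT2 and StringTie, with no version or role, and the mm10 build. Settings, annotation and the use of strand in counting are not stated in those notes or the labels. Raw read counts per gene were deposited by the authors as whole numbers, per the file headers. TPM values (transcript abundances scaled for length and library) were likewise deposited by the authors, and their totals are 998462 and 998120.

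Groups were taken from the treatment labels. Counts were scaled with TMM factors (1.03 and 0.969) from edgeR 4.0.16 in R 4.3.3, and a gene was kept when its mean over both libraries reached 5 CPM. Log2 folds carry exact (Clopper-Pearson) 95% intervals of the binomial share. A fold of 1.5 was used as a rule of size, and no test was possible. Transcript length was computed as count over TPM, set to bases by GENCODE M21 lengths of genes with 1 RefSeq accession, because the GENCODE length of 4 members (Dnajb9, Ern1, Eif2ak3 and Derl2) differed from it by over 20%. A lowess curve (fraction 0.3, 3 iterations, statsmodels 0.14.6) was subtracted for length-adjusted folds. The scripts were tested on simulated counts of 9934 genes with Poisson error only, 200 of them given a true change. With a length trend added, 2891 unchanged genes passed 1.5-fold before length adjustment and 0 after it. Of the changed genes, 179 passed in the right direction before adjustment and 200 after it. Without a trend, 0 unchanged and 200 changed genes passed. The added trend was an exact function of the same implied length that the adjustment used, so its removal was fixed by design. The simulation therefore does not show how well the adjustment works on the real data, where lengths are uncertain. Named genes were all members, Bcat1, and the 4 genes with the largest absolute log2 fold in each of 5 pathway lists. Some cell type markers, overlapping genes and further genes of the translocation and PERK lists were named as well. The members and lists were chosen with earlier results of these data known. Other settings tried were scaling by library totals, by upper quartiles or by size factors from DESeq2 1.42.0, TPM with pseudocounts of 1 and 0.1, minimum CPM of 1, 20 or none (prior count 0.5), GENCODE lengths, GC content, a 2-fold limit and whole intervals past 1.5-fold. Protein sequences were not used here.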

Additional observations from a re-analysis of the deposited data

How the results depend on the processing

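No paired analysis was possible because each group has 1 library, and for the same reason no library could be left out. The count of members at least 1.5-fold higher (4 by TMM) was 0 with TPM at either pseudocount, 2 with the GENCODE length trend removed, 2 with the implied length trend removed, 2 with length and GC trends removed, and 0 at a 2-fold limit. The count at least 1.5-fold lower (7 by TMM) was 4 under upper-quartile factors, 17 with TPM at either pseudocount, 4 with the implied length trend removed, 2 at a 2-fold limit, and 3 once trends with length and GC were taken out. The median log2 fold of the members (-0.12) was -0.21 with library totals, 0.01 under upper-quartile factors, -0.63 with TPM at either pseudocount, -0.09 over 32 members at a minimum of 20 CPM, -0.07 with the GENCODE length trend removed, -0.08 with the implied length trend removed and -0.18 with length and GC trends removed. For all genes the median moved too, by 0.13 (upper quartile) and by -0.41 (TPM, pseudocount 1). The share of all genes past 1.5-fold is given here only for TMM and for the implied length adjustment. Sec61b turned from 0.72 to -0.20, -0.19 and -0.13 with the GENCODE length, implied length, and length and GC trends removed. Of the 11 members past 1.5-fold by TMM, 10 kept their sign in all 8 alternatives for single genes, the exception being Sec61b, and 1, Ern1, stayed past 1.5-fold in all of them. Of the other 22 members, 16 changed sign in at least 1 alternative. The member with the fewest counts, Ern1, had 467 in siBcat1 and was the member left out at a minimum of 20 CPM.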
